A study of Mus musculus with 8 samples.

Results

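Phosphoinositide 3-kinase (PI3K) adds a phosphate to a membrane lipid and so makes PIP3, the signal that brings the kinase PDK1 and its substrate AKT to the membrane. The 9 genes described here encode 4 catalytic subunits of class I PI3K (Pik3ca, Pik3cb, Pik3cd and Pik3cg), 2 regulatory subunits (Pik3r1 and Pik3r5), 2 phosphatases that act on PIP3 or its product (Inpp5d and Inpp4b) and an inhibitor of the kinase (Pik3ip1). They were taken by name from the 19826 genes of the deposited table, in which Ensembl identifiers were matched to mouse symbols, and all 9 were present and passed the filter on low values.

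RNA-seq was made from regulatory T cells (Treg), a CD4 T cell lineage that depends on the transcription factor Foxp3 and holds other immune cells in check. Every C57BL/6 mouse was heterozygous for an X-linked Foxp3 allele that drives YFP and Cre recombinase (Foxp3 YFP-Cre/+). The WT group was Pdpk1 +/+ and the other group Pdpk1 FL/FL, that is, with both copies of the gene of PDK1 flanked by loxP sites. CD4+ YFP+ cells were sorted from the spleen and peripheral lymph nodes of untreated mice, and each group had 4 libraries. Age was not given in the sources used here, nor whether each library is a separate mouse. If they are not, the p-values reflect technical spread between libraries and no more. Because Cre is made only in cells that use the X chromosome with the altered Foxp3 allele, the sorted cells shared each animal with Treg that lack Cre.

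PI3K of class IA pairs a catalytic p110 subunit with a p85-type regulatory subunit and answers to antigen and costimulatory receptors. The class IB enzyme pairs p110γ with p101 or p84 and answers to G proteins below chemokine receptors. SHIP1 and INPP4B remove phosphates from PIP3 or from the lipids made from it. In Treg, p110δ is the catalytic subunit best known for a role in their function.

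Depth was 17448095 to 26299577 recovered reads per library, and the 9 genes had between 155 reads (Pik3cb, the lowest) and 25101 reads (Inpp4b, the highest) in a library. Of 9 T cell and Treg markers, all present, Il2ra was higher, Ikzf2 was lower and 7 did not pass in limma. The mean of 7 of the 9 was lower in the libraries labelled Pdpk1 KO, the median log2 change was -0.27, 7 had an unadjusted limma p under 0.05 and DESeq2 called 6. Of all genes tested, limma called 9.47% and DESeq2 12.7%, shares that also belong beside the marker counts below. The share of all genes at an unadjusted p under 0.05 was not computed, so that count of 7 has nothing to be set against. Foxp3 was at 4418 to 6098 normalized counts in WT and 4708 to 6341 in the other group. A normalized count is a gene's reads divided by the size factor of its library. Pdpk1 summed over all its exons stood at 1923 to 2599.6 in WT and 1656 to 2505.5 in the libraries labelled Pdpk1 KO (log2 change -0.17, exact two-sided permutation p = 0.286, where the smallest possible p is 0.0286). Reads outside the loxP-flanked part stay in that sum, so this sum is no check of genotype, and the group is called KO-labelled below. Of 19 macrophage markers, 18 had a higher mean in the KO-labelled libraries. Among the 16 tested, 7 were higher and Axl was lower, and the summed level of the 19 was 1565 to 3027 in WT and 2074 to 6717 in KO-labelled libraries. Axl alone contributed 940.9 to 1296.4 to that sum in WT and 404.1 to 795.5 in KO-labelled libraries. The sum of the 19 therefore understates the summed rise of the other 18. The macrophage growth factor receptor gene Csf1r reached at most 205 in WT and 717 in KO-labelled libraries, against 6769 to 11955 for the T cell gene Cd3e. None of the 19 was at 0 throughout a group. Of 10 tested markers of B cells, CD8 T cells, NK cells, dendritic cells, red cells and platelets, the B cell genes Cd79b and Cd22 were lower and 8 did not pass, and no neutrophil marker reached the filter. In sorted cells pooled for RNA, a change in the share of a kind of cell and a change of RNA per cell cannot be told apart.

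The genes of PI3K and its counterparts did not move together. The p110δ gene, the p101 gene, the phosphatase gene Inpp4b and the inhibitor gene Pik3ip1 rose in KO-labelled libraries, the SHIP1 gene Inpp5d fell, and the genes of p110α, p110β, p110γ and p85α did not pass the test. Genes were compared by limma across 13847 genes on log2(normalized count + 1), with Benjamini-Hochberg adjusted p and a threshold of 0.05. Folds come from that scale, which understates changes of low genes. By this test 4 of the 9 were higher and 1 was lower, where 9.47% of all genes tested passed in either direction (4.41% higher and 5.06% lower). Log2 changes had a median of 0.15 over the 9 and -0.01 over all genes tested. The 2 groups did not overlap in the same 5 genes, with 4 above WT and 1 below, where this held for 15.3% of all genes tested (7.06% above and 8.24% below). edgeR's quasi-likelihood test and DESeq2, run on the recovered reads, also called 5 of the 9 each, where they called 9.06% and 12.7% of all genes.

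**Figure D1:**
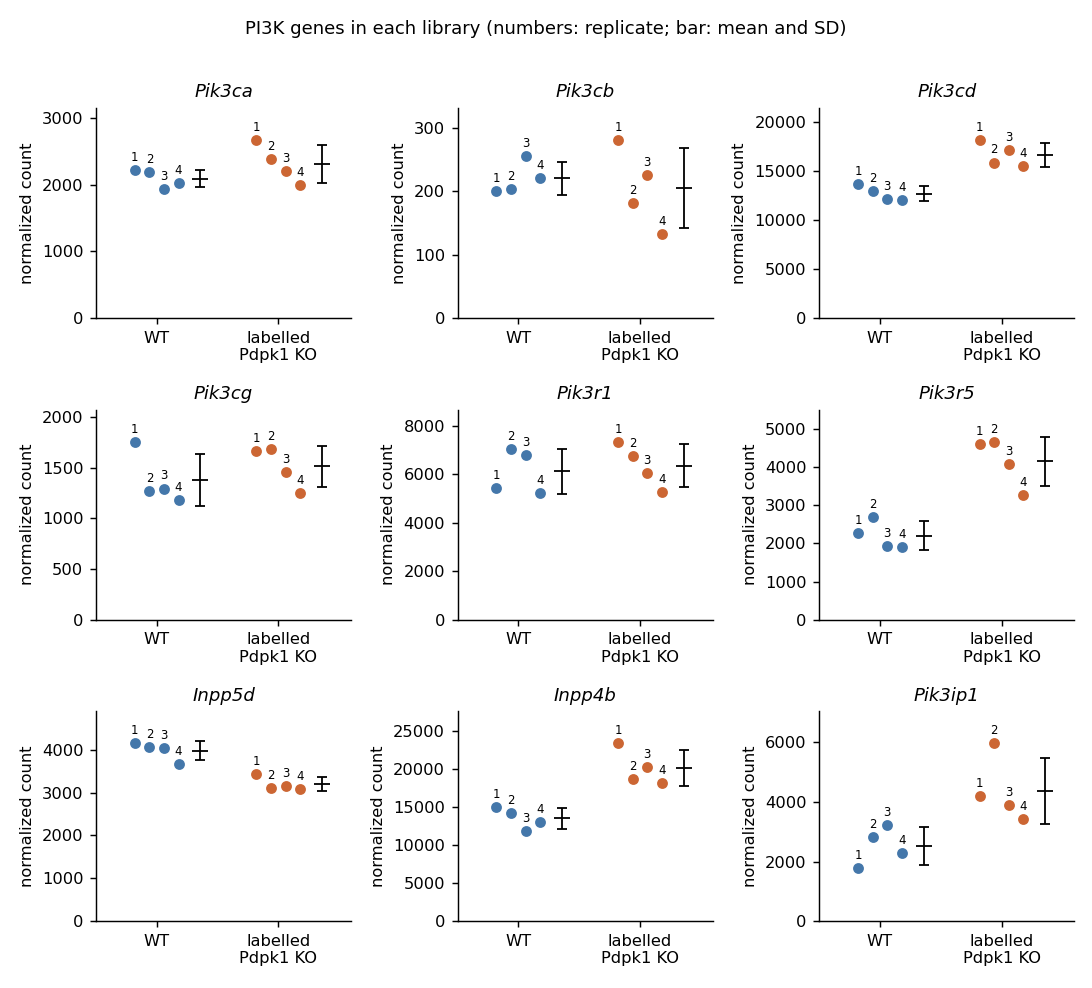
Normalized counts (vertical axes, from 0) of the 9 genes in each library, with WT in blue and KO-labelled in orange, the replicate number above each point, and the group mean with its SD (n = 4) as a black bar. The groups separate in Pik3cd, Pik3r5, Inpp4b, Pik3ip1 and Inpp5d and overlap in the other 4.

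Pik3cd, the gene of p110δ (ENSMUSG00000039936, GRCm38 chromosome 4, 149649168 to 149702571, minus strand), had the highest level per kb of exon among the catalytic subunit genes. WT replicates 1 to 4 held 13638, 12916, 12163 and 11989 normalized counts, and KO-labelled replicates 1 to 4 held 18115.5, 15834, 17071 and 15469.5, the order of replicates used for every gene below. Every KO-labelled value lay above every WT value. The group means were 12677 ± 757 and 16622.5 ± 1208 (SD, n = 4 each). The log2 change was 0.39 ± 0.09 (SE, 95% interval 0.19 to 0.59, adjusted p = 0.0159) or 1.31-fold. The call was lost in 2 of the 8 fits that left out 1 library. Without WT replicate 4 or without KO-labelled replicate 3 the change was 0.36 or 0.38 and the adjusted p 0.0571 or 0.0592.

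Pik3ca, the gene of the widely expressed p110α (ENSMUSG00000027665, chromosome 3, 32397671 to 32468486), stood at 2219, 2187, 1937 and 2026 in WT and 2669, 2391, 2213 and 1993 in KO-labelled libraries. The highest values came from KO-labelled replicates 1 and 2, but replicate 4 lay below 3 of the WT libraries. Its log2 change was 0.14 (95% interval -0.08 to 0.36, adjusted p = 0.464). Pik3cg, the gene of p110γ (ENSMUSG00000020573, chromosome 12, 32173473 to 32208659), had 1754, 1271, 1293.5 and 1179.5 in WT and 1660.1, 1685, 1456 and 1251 in KO-labelled libraries. The highest of the 8 was WT replicate 1, and the log2 change was 0.15 (95% interval -0.14 to 0.43, adjusted p = 0.573). Pik3cb, the gene of p110β (ENSMUSG00000032462, chromosome 9, 99036654 to 99140621), stood at 201, 203, 257 and 221 in WT and 281, 182, 226 and 132 in KO-labelled libraries. Its spread between KO-labelled libraries was 30.9% of the mean and its interval was the widest of the 9, from -0.64 to 0.34 around a log2 change of -0.15 (adjusted p = 0.761). These intervals leave room for a fold of 1.28 for Pik3ca and 1.35 for Pik3cg, so none of the 3 was shown to stay level.

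Levels of the 4 catalytic subunit genes were compared with each other after division by the length of all annotated exons (normalized counts per kb). On that scale Pik3cd had 2025 ± 121 in WT and 2656 ± 193 in KO-labelled libraries, Pik3ca 230.2 ± 14.7 and 255 ± 31.5, Pik3cg 163 ± 30.6 and 179.6 ± 24.05, and Pik3cb 30.7 ± 3.60 and 28.5 ± 8.81 (SD, n = 4 each). The order p110δ, p110α, p110γ, p110β was the same in all 8 libraries. Of the summed per-kb level of the 4 genes, Pik3cd made up 81.9 to 83.1% in WT and 83.8 to 86.5% in KO-labelled libraries, ranges that do not overlap. The sum itself was 2449 ± 159 in WT and 3119 ± 241 in KO-labelled libraries. Exon lengths count every annotated transcript, so a gene that uses a short form has a higher level than is given here.

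Pik3r5 encodes p101, the regulatory subunit that couples p110γ to G protein βγ subunits, and it showed the largest change of the 9. The gene (ENSMUSG00000020901, chromosome 11, 68432121 to 68497849, plus strand) had 2283, 2702, 1934 and 1896 normalized counts in WT and 4601, 4663, 4074 and 3264 in KO-labelled libraries. The lowest KO-labelled value, from replicate 4, was above the highest WT value, from replicate 2. Means were 2204 ± 375 and 4150.6 ± 647 (SD, n = 4 each). The log2 change was 0.91 ± 0.13 (SE, 95% interval 0.63 to 1.20, adjusted p = 0.000432) or 1.88-fold. It passed in each of the 8 fits that left out 1 library (adjusted p of at most 0.00254).

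The catalytic partner of p101 was set against it. Per kb, the ratio of Pik3r5 to Pik3cg within a library was 1.98, 3.23, 2.27 and 2.44 in WT and 4.21, 4.20, 4.25 and 3.96 in KO-labelled libraries, so KO-labelled libraries lay close together and above all WT values. Pik3r6, which encodes p84, the alternative partner of p110γ, begins 5169 bases past the end of Pik3r5 on the same strand (chromosome 11, 68503019 to 68552698). It was listed at 0 in 5 of the 8 libraries and had 18 reads in all, so it was below the filter. A value of 0 allows up to 3 reads, which is 2.56 to 3.38 normalized counts in these libraries and covers only the error of counting. Per kb, Pik3r5 rose from 397 ± 67.5 to 748 ± 117 (SD, n = 4 each), while Pik3r6 was at a mean of 0.667 in WT and 0.535 in KO-labelled libraries.

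Pik3r1 encodes p85α and its short forms, which stabilise p110α, p110β and p110δ and hold them inactive until a receptor is engaged. The gene (ENSMUSG00000041417, chromosome 13, 101680563 to 101768217, minus strand) had 5421, 7057.5, 6807 and 5235 normalized counts in WT and 7349, 6774, 6074 and 5264 in KO-labelled libraries. The groups covered nearly the same range, and the log2 change was 0.06 (95% interval -0.21 to 0.32, adjusted p = 0.846). The per-kb ratio of Pik3r1 to Pik3cd was 0.301 ± 0.0499 in WT and 0.237 ± 0.0256 in KO-labelled libraries (SD, n = 4 each), and the groups overlapped. Per kb, the other p85-type genes had WT means of 106 (Pik3r2) and 23.5 (Pik3r3) against 608 for Pik3r1. In normalized counts, Pik3r2 (p85β) stood at 393 to 503 in WT and 360.1 to 446 in KO-labelled libraries (adjusted p = 0.717). Pik3r3 (p55γ) had 123, 74.0, 154 and 147 in WT and 22.3, 73.4, 52.8 and 61.4 in KO-labelled libraries, where WT replicate 2 and KO-labelled replicate 2 nearly touched. It fell to 0.407 of the WT level (adjusted p = 0.0474), the only call of the 2 tested genes on the list of other class I subunits. That call was close to the threshold and ended in 6 of 8 fits without 1 library (adjusted p of at most 0.135). It also ended with the macrophage covariate described below (adjusted p = 0.219), and was not made by edgeR's quasi-likelihood test (adjusted p = 0.0527). In limma it was lost under quantile normalization (adjusted p = 0.0634) and without the filter (0.0528). Without the 3 libraries highest in macrophage markers Pik3r3 did pass, at a log2 change of -1.89 (limma adjusted p = 0.047).

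Inpp5d encodes SHIP1, the blood cell phosphatase that turns PIP3 into a lipid with 1 phosphate fewer. The gene (ENSMUSG00000026288, chromosome 1, 87620312 to 87720507, plus strand) had 4142, 4057, 4036 and 3654 normalized counts in WT and 3431, 3114, 3157 and 3085 in KO-labelled libraries. All KO-labelled values were below all WT values, and it varied least of the 9 between replicates, by 5.46% of the mean in WT and 4.97% in KO-labelled libraries. Means were 3972 ± 217 and 3197 ± 159 (SD, n = 4 each), and the gene fell by 0.31 on the log2 scale (SE 0.09, 95% interval -0.50 to -0.13, adjusted p = 0.0307). The call was lost in 6 of the 8 fits that left out 1 library (WT replicate 1, 2 or 3, or KO-labelled replicate 2, 3 or 4), with log2 changes still between -0.35 and -0.29 over the 8 and an adjusted p of at most 0.0849.

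Inpp4b encodes the phosphatase that acts next, on the product of SHIP1. The gene (ENSMUSG00000037940, chromosome 8, 81342556 to 82127914, plus strand) had 14974, 14218, 11936 and 13005 normalized counts in WT and 23370.4, 18752, 20284 and 18205 in KO-labelled libraries. KO-labelled replicate 1 was the highest, and all KO-labelled values were above all WT values. Means were 13533 ± 1339 and 20153 ± 2318 (SD, n = 4 each). The log2 change was 0.57 ± 0.11 (SE, 95% interval 0.34 to 0.81, adjusted p = 0.00345) or 1.49-fold. It passed in each of the 8 fits without 1 library (adjusted p of at most 0.0162).

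The phosphatases thus moved in opposite directions. The per-kb ratio of Inpp4b to Inpp5d, which does not depend on how libraries are scaled, was 2.10, 2.04, 1.72 and 2.07 in WT and 3.96, 3.50, 3.74 and 3.43 in KO-labelled libraries. No KO-labelled library came near the WT range, and the mean ratio was 1.85 times that of WT. All KO-labelled values were already above WT for Inpp4b and below WT for Inpp5d. The ratio therefore had to separate, and it adds no support to the call of Inpp5d, which was lost in several fits. Their close relatives were lower. Inppl1, the gene of SHIP2, fell from 468 ± 173 to 218 ± 16.4 normalized counts (SD, n = 4 each, log2 change -1.03, adjusted p = 0.00606). Inpp4a, the relative of Inpp4b, had 1720.3, 1518, 1412 and 1549 in WT and 1276.5, 1069.5, 1338 and 1157 in KO-labelled libraries. It fell by 0.36 on the log2 scale (adjusted p = 0.0454), close to the threshold, with no call in 5 of 8 fits without 1 library (adjusted p of at most 0.127), by edgeR (0.0529) or with the macrophage covariate (0.377). The per-kb ratio of Inpp4b to Inpp4a was 6.67 to 7.45 in WT and 12.0 to 14.6 in KO-labelled libraries, a separation that likewise follows from that of each gene. Inpp4a, Pik3r2 and Pik3r6 were chosen for naming after their values were seen.

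**Figure D2:**
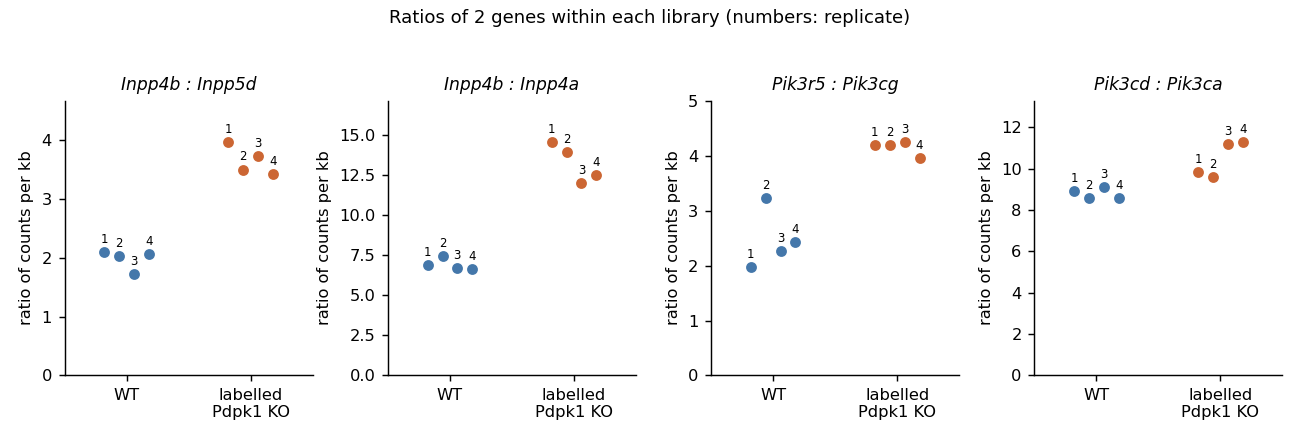
Ratios of normalized counts per kb of exon between 2 genes of the same library (vertical axes, from 0), with WT in blue, KO-labelled in orange and the replicate number above each point. In all 4 panels KO-labelled points lie above all WT points, with Inpp4b to Inpp5d at 3.43 to 3.96 against 1.72 to 2.10. In the panels with Inpp4b this follows from the separation of each gene. Ratios of Pik3r1 to Pik3cd and of Pik3ip1 to Pik3cd were also computed and are not shown. Both overlapped between groups, the latter at 0.191 to 0.388 in WT and 0.323 to 0.551 in KO-labelled libraries. How often ratios of other gene pairs separate was not computed.

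Pik3ip1 encodes a membrane protein that binds the catalytic subunit and lowers its activity. The gene (ENSMUSG00000034614, chromosome 11, 3330401 to 3342971, plus strand) had 1775.5, 2816, 3221 and 2279.9 normalized counts in WT and 4179.5, 5951, 3891 and 3414 in KO-labelled libraries. KO-labelled replicate 2 was the highest and WT replicate 1 the lowest, and the lowest KO-labelled value was just above the highest in WT. It varied most of the genes that passed, by 25.0% of the mean in WT and 25.4% in KO-labelled libraries. Means were 2523 ± 630.2 and 4359 ± 1107 (SD, n = 4 each). The log2 change was 0.79 ± 0.18 (SE, 95% interval 0.41 to 1.17, adjusted p = 0.0105) or 1.73-fold. It passed in each of the 8 fits without 1 library (adjusted p of at most 0.0381), but not with the macrophage marker covariate described below (log2 change 0.42, adjusted p = 0.325) or without the 3 libraries highest in those markers (0.68, adjusted p = 0.125). Its exons share 91 bases with Gm12592 on the opposite strand, a gene with 385 reads over the 8 libraries against 27759 for Pik3ip1, and without a stated strand setting reads in those bases cannot be told apart.

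**Figure D3:**
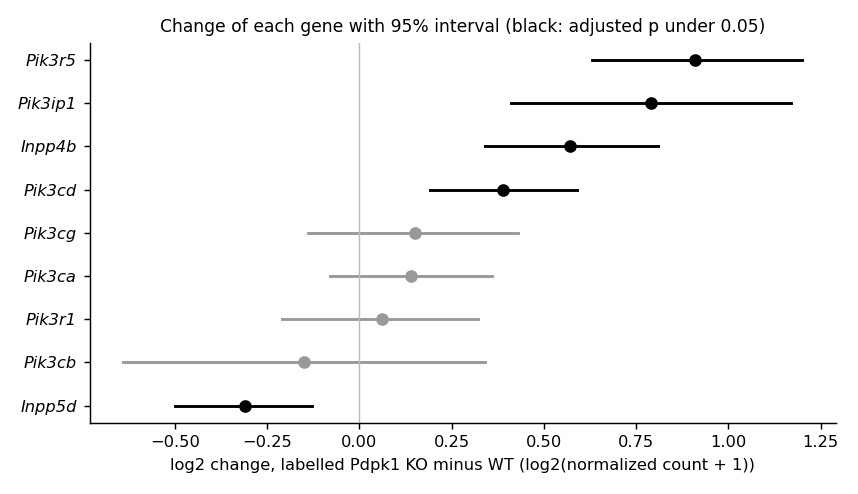
Log2 change of each gene between groups (horizontal axis, KO-labelled minus WT) with its 95% interval from limma over 4 libraries a group, in black where the adjusted p was under 0.05. Pik3r5 leads at 0.91, Inpp5d is the only one of the 9 with an interval below 0, and the intervals of Pik3cg, Pik3ca, Pik3r1 and Pik3cb cross 0.

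Promoters are shown for the largest rises, Pik3r5 and Pik3ip1, and for Inpp5d, which fell, because these genes moved and lie under a single start site each in RefSeq (GRCm38.p6). Each runs 5′ to 3′ over 300 bases on the plus strand, from 250 before the start site, with the 50 bases from the start site on in capitals.
Pik3r5, chr11:68431875-68432174: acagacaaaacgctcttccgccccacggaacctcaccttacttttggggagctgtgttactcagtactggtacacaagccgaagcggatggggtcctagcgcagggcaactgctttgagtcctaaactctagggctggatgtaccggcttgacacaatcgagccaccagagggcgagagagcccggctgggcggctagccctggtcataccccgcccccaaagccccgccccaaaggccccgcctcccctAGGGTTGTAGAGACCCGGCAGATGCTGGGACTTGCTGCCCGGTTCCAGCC
Pik3ip1, chr11:3330481-3330780: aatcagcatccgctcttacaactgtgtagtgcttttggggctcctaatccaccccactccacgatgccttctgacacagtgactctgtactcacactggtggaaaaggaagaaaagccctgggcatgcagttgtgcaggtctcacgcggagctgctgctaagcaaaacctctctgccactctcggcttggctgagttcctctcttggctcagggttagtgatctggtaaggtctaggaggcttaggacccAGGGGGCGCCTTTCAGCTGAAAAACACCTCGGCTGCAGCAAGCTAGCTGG
Inpp5d, chr1:87620062-87620361: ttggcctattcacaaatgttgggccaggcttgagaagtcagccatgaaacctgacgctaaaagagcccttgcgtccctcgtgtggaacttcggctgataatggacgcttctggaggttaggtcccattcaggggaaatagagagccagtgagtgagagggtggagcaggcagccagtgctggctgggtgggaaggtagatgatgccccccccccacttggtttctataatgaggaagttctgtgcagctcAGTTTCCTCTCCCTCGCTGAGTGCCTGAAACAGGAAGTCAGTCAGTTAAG
The Pik3r5 window holds 62.0% G or C and 16 CG pairs, the Pik3ip1 window 54.7% and 7, and the Inpp5d window 53.7% and 6, where the median of all 32851 promoters was 52.7% G or C.

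All 9 genes matched RefSeq promoters, 13 in all because Pik3cd has 3 start sites and Pik3cg and Pik3r1 have 2. They were searched on both strands for GTAAACA, the core bound by FoxO factors, which AKT keeps out of the nucleus, and for the E-box CACGTG bound by Myc and related factors. GTAAACA was in 1 of the 13, at a start site of Pik3cg, a gene whose change did not pass. It is in 3.65% of all promoters of this length. CACGTG was in 0 of the 13 and is in 7.15% of all promoters. These counts say only which letters lie within the windows. The Pik3cg window is shown with its match in capitals, beginning at position -92 from the start site, on the minus strand and 5′ to 3′.
Pik3cg, chr12:32208421-32208720: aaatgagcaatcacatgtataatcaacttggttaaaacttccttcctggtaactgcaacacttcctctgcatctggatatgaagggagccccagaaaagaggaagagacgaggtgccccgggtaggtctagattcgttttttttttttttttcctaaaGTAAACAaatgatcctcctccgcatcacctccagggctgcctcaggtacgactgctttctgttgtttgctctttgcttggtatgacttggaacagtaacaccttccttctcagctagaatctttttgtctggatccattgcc

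Macrophage markers moved with the group, and so each of the 5 calls was also computed with their mean log2 level as a covariate, and again without the 3 libraries highest in them (WT replicate 2 and KO-labelled replicates 2 and 3). Pik3r5 stayed past the threshold both ways, at a log2 change of 0.72 (limma adjusted p = 0.0251) with the covariate and 0.93 (limma adjusted p = 0.0104) without the 3 libraries. Inpp4b was at 0.62 (limma adjusted p = 0.0306) with the covariate and at 0.64 but not past the threshold (limma adjusted p = 0.0757) without the 3 libraries. Pik3cd was at 0.43 and 0.41, as large as before, but not past the threshold (limma adjusted p = 0.0875 and 0.221). Pik3ip1 was called in neither, as given above. Inpp5d was at -0.28 in both (limma adjusted p = 0.257 and 0.373). Thus 2 of the 9 were higher with the covariate and 1 without the 3 libraries, and 0 were lower in either, where the unadjusted p of Inpp5d was 0.0331 and 0.0655. Dropping 3 libraries leaves 3 against 2, and over all genes 167 were then higher and 305 lower.

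**Figure D4:**
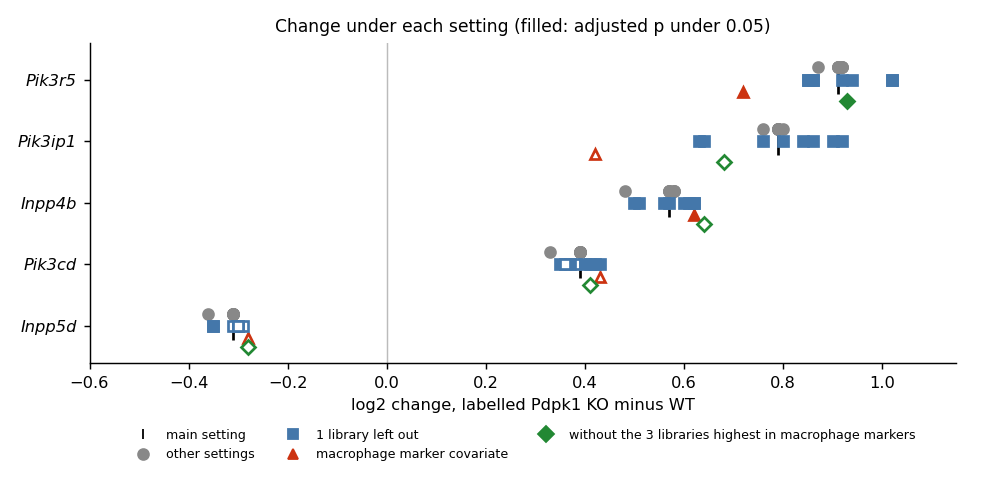
Log2 change (horizontal axis, KO-labelled minus WT) of the 5 genes that passed, 1 symbol per setting, filled where the adjusted p was under 0.05. Each gene keeps the sign of its change in every setting shown, and the red triangle (macrophage marker covariate) of Pik3ip1 stands lowest against its other settings, at 0.42.

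The 9 genes also shared a pattern between libraries of 1 group. KO-labelled replicate 4 had the lowest of the 4 KO-labelled values in all 9, and it was the lowest for 26.7% of all genes tested. KO-labelled replicate 1 was the highest in 6 of the 9, against 27.4% of all genes tested. Among WT libraries replicate 4 was the lowest in 5 of the 9 (23.4% of all genes tested). WT replicate 1 was the highest in 5 of the 9 (29.8% of all genes tested) and the lowest in 2. Over the 8 libraries, and among 9577 genes with a mean normalized count of at least 100, the log2 values most like those of Pik3cd were those of Zfp608 and Inpp4b (Pearson r = 0.989 each). Pik3cd and Trak1 were most like Inpp4b (0.989 each), Crlf3 and AI506816 most like Pik3r5 (0.993 and 0.991), and Slc41a3 and Itgal most like Inpp5d (0.985 and 0.983). Ddx56 and Acp5 were most like Pik3ip1 (0.978 and 0.977). These values describe 8 points that share the split into groups and the library scaling.

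The wider pathway was taken from 8 lists with 100 genes, of which 98 were in the table and 95 were tested. Of these 10 rose, 11 fell and 74 did not pass, with a median log2 change of 0.00 where all genes tested had -0.01 and 9.47% passed.

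Among 19 tested receptors, adaptors and GTPases that engage PI3K, 3 rose, 2 fell and 14 did not pass (median log2 change -0.05). Trat1, the gene of a T cell adaptor that binds p85, had 1869, 2548, 2459.9 and 2178 normalized counts in WT and 5745.5, 6931, 6265 and 5466 in KO-labelled libraries. These groups were far apart, with a log2 change of 1.43 ± 0.11 (SE, adjusted p = 1.51e-06). Icos, the gene of a costimulatory receptor whose tail recruits p85, had 1198, 1242, 1013 and 1121 in WT and 597, 406.5, 375 and 599 in KO-labelled libraries. It fell by 1.24 on the log2 scale (adjusted p = 0.000129). Irs2, an adaptor gene below insulin and growth factor receptors, rose by 1.07 (adjusted p = 0.000939), and Rras2, the gene of a small GTPase that binds p110, by 0.62 (adjusted p = 0.00145). The adaptor gene Dok1, named after its values were seen, fell by 0.58 on the log2 scale (adjusted p = 0.0137). In both fits that took macrophage markers into account Trat1, Icos, Irs2 and Rras2 also passed (adjusted p of at most 0.0301), while Dok1 did not (adjusted p = 0.0781 and 0.0865), nor without WT replicate 4 (0.0552).

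Of 24 tested genes listed as PIP3-binding effectors, 5 rose, 3 fell and 16 did not pass (median log2 change 0.05). Tec, which gives its name to a family of kinases drawn to PIP3, had 376.5, 314, 283 and 339 normalized counts in WT and 877, 1077, 956.5 and 829.5 in KO-labelled libraries. The groups were far apart, with a log2 change of 1.51 ± 0.14 (SE, adjusted p = 5.03e-06) or 2.85-fold. Txk, a kinase gene of the same family whose product lacks the lipid-binding domain of the others, rose by 0.74 (adjusted p = 0.000241). Adap1, the gene of a PIP3-binding regulator of Arf GTPases, had 434, 329, 400.5 and 378 in WT and 171, 67.9, 121 and 53.8 in KO-labelled libraries. It fell by 2.03 on the log2 scale (adjusted p = 0.000506). Cyth4, which encodes an activator of Arf GTPases, fell by 0.57 on the log2 scale (adjusted p = 0.000987). These 4 passed in both macrophage marker fits as well (adjusted p of at most 0.0386).

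Of 23 other tested phosphoinositide phosphatases, 2 rose, 4 fell and 17 did not pass (median log2 change -0.10). Mtmr3, the gene of a myotubularin that acts on the lipids of endosomes, had 6432.5, 5214, 4913 and 5441 normalized counts in WT and 10069.4, 7601.5, 8131 and 9072 in KO-labelled libraries. All KO-labelled values were above WT, and the log2 change was 0.66 ± 0.11 (SE, adjusted p = 0.00123). Inpp5a was the other that rose, by 0.46 (adjusted p = 0.0282), named after its values were seen. Its call ended in 5 of 8 fits without 1 library, at adjusted p of at most 0.0837, and with the macrophage covariate (0.111). Besides Inppl1 and Inpp4a, Inpp5b fell by 0.46 on the log2 scale (adjusted p = 0.00674) and Synj2, the gene of synaptojanin 2, fell by 1.12 (adjusted p = 0.00807). With the macrophage covariate Inppl1, Inpp5b and Synj2 had log2 changes of -0.78, -0.36 and -0.87 that did not pass (adjusted p = 0.162, 0.166 and 0.168). Leaving out the 3 libraries gave Inppl1 -1.05 and Inpp5b -0.39, neither called (limma adjusted p = 0.0959 and 0.204), while Synj2 passed at -1.05 (limma adjusted p = 0.0358). Mtmr3 passed in both fits, at 0.88 with the covariate (limma adjusted p = 0.00104) and 0.78 without the 3 libraries (limma adjusted p = 0.017).

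**Figure D5:**
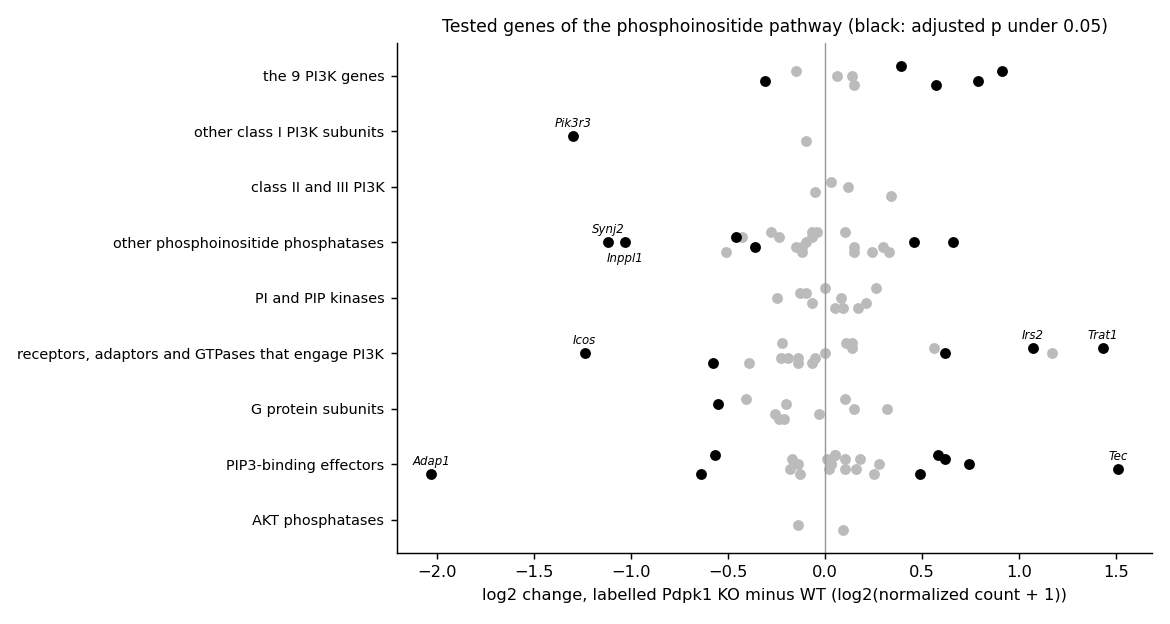
Log2 change (horizontal axis, KO-labelled minus WT) of each tested gene of the 9 and of the 8 other lists, 1 point per gene, in black where the adjusted p was under 0.05 and with its name where the change was also at least 1. Points reach from Adap1 at -2.03 to Tec at 1.51, and the lists of PI and PIP kinases, class II and III PI3K and AKT phosphatases hold no black point.

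The other lists are short, and 9.47% of all genes tested passed in limma, 9.06% in edgeR and 12.7% in DESeq2. Counts of 0 or 1 in such lists are therefore not read as a result about them. The share of all genes at an unadjusted p under 0.05 is not given here. Of 10 tested G protein subunits, which lie upstream of p110γ and p101, only Gng2 passed in limma. It fell by 0.55 on the log2 scale (adjusted p = 0.0239), but was not past the threshold in 4 of 8 fits without 1 library (adjusted p of at most 0.0825), nor with the macrophage covariate (-0.37, adjusted p = 0.36). None of 11 kinases that make or modify the substrate of PI3K passed in limma, edgeR or DESeq2, with 1 at an unadjusted p under 0.05. Among them Pip4k2a and Pip5k1c were at log2 changes of 0.09 (95% interval -0.14 to 0.31) and 0.05 (-0.14 to 0.23). None of 4 class II and III genes passed in limma, edgeR or DESeq2, with 0 at an unadjusted p under 0.05. Of these, Pik3c3, the gene of the endosomal PI3K, was at 0.12 (95% interval -0.09 to 0.32) and Pik3c2a at 0.34 (-0.10 to 0.78). In the limma fit with the replicate number as a block Pik3c2a did pass, at the same change of 0.34 (adjusted p = 0.0373). The AKT phosphatase genes Phlpp1 and Phlpp2 were at 0.09 (95% interval -0.17 to 0.35) and -0.14 (-0.65 to 0.37), with 0 of 2 called by limma, edgeR or DESeq2 and 0 at an unadjusted p under 0.05.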

How the data were processed

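The table the authors deposited gives each gene a signal in each library, namely its reads over the size factor of the library, as the table's name and the submitters' processing notes have it. These name Trimmomatic 0.39, STAR 2.7.6a, SAMtools 1.11, featureCounts (Subread 2.0.1), DESeq2 1.21 and GRCm38, with no roles. Strandedness and gene annotation are not given in the sources used here. All values (100%) were whole multiples of what 1 read is worth in the library, within 0.001, so reads were recovered. Symbols (19775 matched, 51 not), positions and exon lengths came from GENCODE M21, promoters from RefSeq.

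Genes at a normalized count of 10 or more in at least 4 libraries (13847, 5979 removed) were fitted with limma 3.58.1 (R 4.3.3), with trend and no replicate term. edgeR 4.0.16 and DESeq2 1.42.0 on recovered reads, other pseudocounts (0.5 and 8), filters and scalings, and fits without each library were alternatives. Steps were tested on simulated counts. Replicates differed by more than counting noise in every pair (chi-square per degree of freedom of 14.5 or more).

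The 9 genes, lists and tests were chosen with earlier results of these data known. All 9 genes were named, then up to 4 genes past the threshold per list by adjusted p, or the 2 with the highest mean normalized count where none passed, and the 2 genes most like each called gene. Intervals of log2 changes are limma's over 4 libraries a group. The floor of 3 reads covers counting error only, and PCR reads without molecular identifiers are not independent molecules.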

Additional observations from a re-analysis of the deposited data

Results flagged for a closer look

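In 72 groups of 4 values (36 named genes in each group), 2 had a library far from the other 3, and chance alone gives about 1 in 20. Rras2 stood at 2628.5 normalized counts in KO-labelled replicate 4 against 2229.9 to 2283 in the other KO-labelled libraries. Pik3r6 stood at 9.7 normalized counts in WT replicate 4 and was listed at 0 in the other WT libraries. With the other 3 at 0, any read at all meets this rule, so the flag of Pik3r6 is fixed by its low level. The rate of about 1 in 20 does not apply to it.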

How the results depend on the processing

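All 5 called genes of the 9 kept their direction under every alternative. Counts over the 9 stayed at 4 higher and 1 lower with another pseudocount, filter, scaling, edgeR or DESeq2, and ranged from 3 to 4 higher and 0 to 1 lower without 1 library, where the largest unadjusted p of Inpp5d was 0.00808. Without 1 library all genes gave 389 to 588 higher and 495 to 724 lower (611 and 700 with all), and the other pathway lists 9 to 11 higher and 7 to 10 lower. Over 1.5-fold fewer were higher without WT replicate 4 (389) or KO-labelled replicate 3 (395). With the macrophage covariate, chosen after seeing the data, 228 genes were higher and 306 lower, 2 and 0 of the 9, and 5 pathway genes lower. Without the 3 libraries highest in those markers, also chosen after seeing the data, the numbers were 167 and 305, 1 and 0, and 6 and 6. The replicate block called 1243 higher and 1292 lower and 17 pathway genes lower. The labels give no pairing, and whether the replicate numbers pair libraries was not tested. Same-numbered deviations from the group means correlated at 0.217, 0.0921, 0.0481 and 0.113, all positive. Of the 8 libraries, 6 correlated best with their own number in the other group. The main fit takes no account of any such pairing. Among the named genes signs turned only in values never past the threshold: Pik3cb at 0.04 without KO-labelled replicate 4, Pik3r1 at -0.09 with the covariate and -0.02 without KO-labelled replicate 1 or WT replicate 4, Pip4k2a at -0.14 with the covariate, Pip5k1c at -0.02 under quantile normalization, Phlpp2 at 0.03 without WT replicate 2, and Foxp3 at -0.01 without KO-labelled replicate 1. Without 1 library their ranges were -0.32 to 0.04 (Pik3cb), -0.02 to 0.14 (Pik3r1), -0.30 to 0.03 (Phlpp2) and -0.01 to 0.17 (Foxp3). The cause was not tested.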
